A study of Rattus norvegicus with 6 samples.

Results

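Adipocyte markers and lipid droplet genes, 10 in all, were followed through the ovary RNA pools of lean and overfed rats: the adipokines Adipoq and Lep, the lipid droplet genes Cidec and Plin1, the glycerol channel gene Aqp7, the lipogenic gene Thrsp, the fatty acid handling genes Fabp4 and Lpl, the transcription factor gene Pparg and the triglyceride synthesis gene Dgat2. Members were given by name, and every probe set that the platform annotation maps to 1 of these genes alone was taken. All 10 genes were found, with 14 probe sets, among 14217 named genes on the array. Thrsp had 3 probe sets, Plin1 and Dgat2 had 2 each, and the other 7 genes had 1 each. Female rats had received a liquid diet by total enteral nutrition (tube feeding) over 28 days, with 155 kcal (lean) or 220 kcal (overfed) per kg of metabolic body weight. They were mated with lean males, and ovaries were frozen at 4.5 days post coitum. There were 3 pools of each diet, hybridized to 6 Affymetrix arrays with 1 pool on each. How many rats made up a pool, and their strain, age and weight, are not stated in the labels, so p-values measure the spread between pools, which may be technical. Values are given throughout in the order of pools 1, 2 and 3.

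White adipocytes store triglyceride in a single large lipid droplet. Perilipin 1 coats that droplet, and the Cidec protein lets small droplets fuse into it. Lipoprotein lipase frees fatty acids from circulating lipoproteins, Fabp4 carries them inside the cell, Dgat2 joins the last fatty acid to diacylglycerol, and PPAR gamma, encoded by Pparg, is the master regulator of the adipocyte programme. The ovary lies beside a fat pad, within a bursa, and its own steroidogenic cells hold small droplets of cholesteryl ester. Several of these genes, Lpl and Pparg among them, are also active outside adipocytes.

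Each probe set's deposited log values, read here as log2, are centred on their median over the 6 arrays. A relative value of 0 is therefore the middle of the 6 pools, levels are unknown, and no gene's level can be set against another's. For the same reason the ovary label could not be checked by level, and whether adipocyte transcripts were abundant or near background in these pools is not known. Array medians lay between -0.0094 and 0.0099. In the spiked and quality controls of the arrays, lean pool 3 differed from the rest. Its mean over 18 hybridization control probe sets was 0.51, against -0.24 to 0.05 in the other pools, and its beta-actin 3' minus 5' difference was 0.36, against -0.06 to 0.06. In whole tissue pools, fewer cells of a type and less RNA per cell cannot be told apart.

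The 250 bases before the transcription start are shown for 4 members, taken from RefSeq (build GRCr8), where 6 of the 10 genes had an entry. Adipoq (chr11:91240170-91240419, minus strand), Cidec (chr4:148137116-148137365, minus strand) and Thrsp (chr1:161138965-161139214, minus strand) are shown because their values over the pools were alike, and Lep (chr4:58626288-58626537, plus strand) because its values were not. Each runs 5′ to 3′ on the strand of its gene and ends at the base before the start, with motif matches in capitals.
Adipoq: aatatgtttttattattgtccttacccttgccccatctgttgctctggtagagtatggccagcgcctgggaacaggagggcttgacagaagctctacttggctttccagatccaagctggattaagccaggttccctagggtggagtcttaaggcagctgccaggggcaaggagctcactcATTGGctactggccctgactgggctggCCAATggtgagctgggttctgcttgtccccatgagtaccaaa
Cidec: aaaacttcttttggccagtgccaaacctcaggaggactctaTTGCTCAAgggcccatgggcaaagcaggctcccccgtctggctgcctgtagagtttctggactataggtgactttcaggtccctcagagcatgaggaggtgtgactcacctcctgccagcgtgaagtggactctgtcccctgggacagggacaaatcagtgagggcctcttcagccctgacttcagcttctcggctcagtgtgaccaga
Thrsp: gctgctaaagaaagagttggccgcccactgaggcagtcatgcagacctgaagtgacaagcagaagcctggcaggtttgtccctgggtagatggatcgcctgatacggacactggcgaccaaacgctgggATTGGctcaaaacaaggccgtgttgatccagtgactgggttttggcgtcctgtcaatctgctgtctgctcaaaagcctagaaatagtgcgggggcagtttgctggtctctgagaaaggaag
Lep: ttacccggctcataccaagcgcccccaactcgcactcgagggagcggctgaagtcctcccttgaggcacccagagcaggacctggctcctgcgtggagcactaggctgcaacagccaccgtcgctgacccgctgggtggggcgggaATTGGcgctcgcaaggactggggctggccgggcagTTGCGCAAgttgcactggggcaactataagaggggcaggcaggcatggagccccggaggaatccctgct
Searched on both strands were CCAAT (the CCAAT box), TTGCNNAA (a C/EBP core), TATAAA (the TATA box), AGGTCA (a nuclear receptor half-site) and the direct repeat of that half-site with 1 base between, to which PPAR gamma binds with its partner and which contains the half-site. CCAAT was found in Adipoq at bases 69 to 65 (reverse strand) and 42 to 38 before the start, in Thrsp at bases 121 to 117 and in Lep at bases 104 to 100, both on the reverse strand. TTGCNNAA was found in Cidec at bases 209 to 202 and in Lep at bases 69 to 62, where the match reads the same on both strands. Over all 33465 windows of this length, CCAAT was in 34%, TTGCNNAA in 9.22%, TATAAA in 12.9%, AGGTCA in 14.1% and the direct repeat in 0.0508%. The last 3 were not found in the 4 windows shown. These are letter matches and carry no measurement of binding.

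In overfed ovaries all 10 genes had a mean below that of lean ovaries, and none of the differences passed the test against the spread between pools. The median difference over the 10 genes, overfed minus lean, was -0.30 on the log2 scale, against 0.007 over all 14217 genes. Thrsp was lowest (-0.86, SE 0.39, 0.55-fold), followed by Cidec (-0.54, SE 0.29, 0.69-fold), Fabp4 (-0.45, SE 0.31) and Aqp7 (-0.41, SE 0.21). Pparg was nearest to 0 (-0.05, SE 0.17). In limma, 0 of the 10 genes passed an unadjusted p of 0.05, where 7.15% of all genes did, and 0 passed the adjusted threshold, where 0% of all genes did. Groups without overlap made up 13.1% of all genes, and the groups overlapped in each of the 10. Of all genes, 47.8% were lower in overfed ovaries. Counted by probe set, 13 of the 14 were lower, against 45.4% of all probe sets, 0 of 14 had an unadjusted p under 0.05, against 6.67%, and 0 of 14 were without overlap, against 12.7%. The members are not independent counts of direction, since most of them had similar values over the pools.

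These values moved with single pools. Without lean pool 3, 7 of the 10 were lower, with a median of -0.15, and without overfed pool 2 the median was -0.12. Without lean pool 2 the median was -0.59, and Thrsp (-1.21), Fabp4 (-0.77), Cidec (-0.76) and Aqp7 (-0.58) had an unadjusted limma p under 0.05, 4 of 10 against 7.83% of all genes in that fit. Without overfed pool 1 it was -0.57, and Thrsp, Cidec and Dgat2 had such a p, 3 of 10 against 6.84%. Without lean pool 3 and overfed pool 1 together, a choice made after seeing the data, it was -0.35, and Thrsp and Dgat2 had such a p, 2 of 10 against 5.35%. In none of these fits did a member pass the adjusted threshold.

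**Figure D1:**
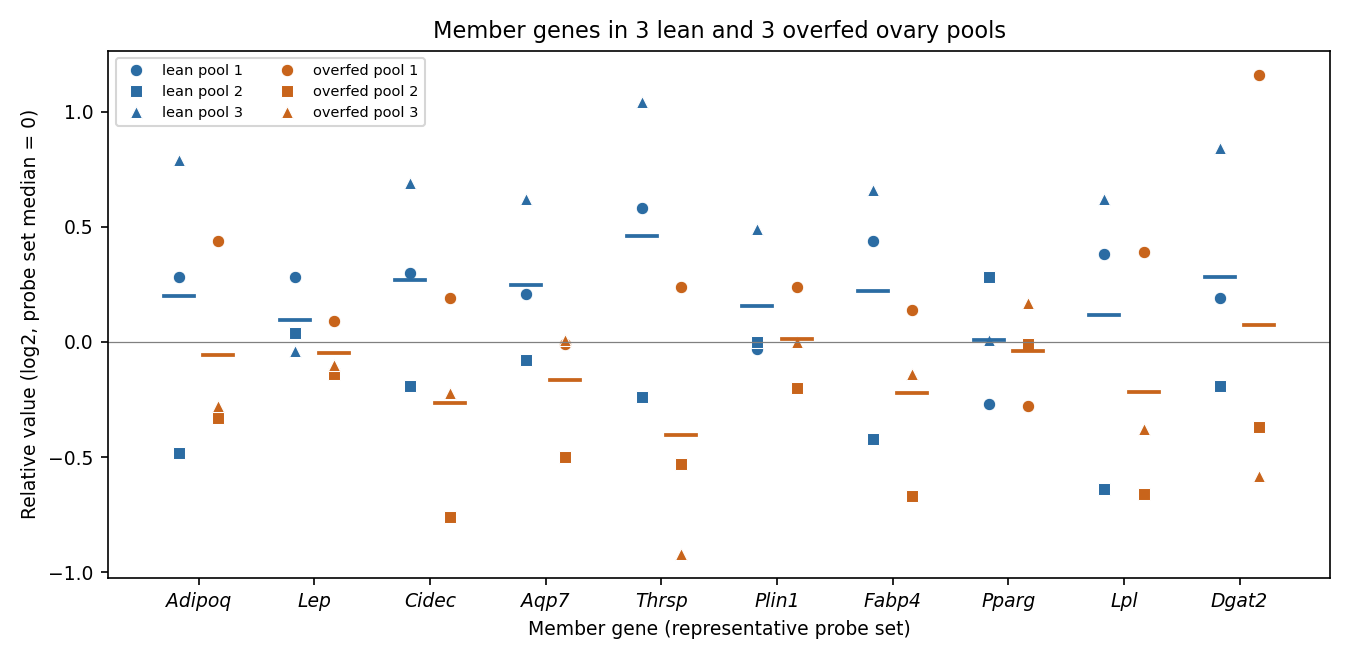
Relative value (log2, vertical axis) of each member gene's representative probe set in the 6 pools, with lean pools in blue, overfed pools in orange, marker shapes for the pool number and bars for group means (n = 3). Lean pool 3 is the highest of the lean pools in 8 of the 10 genes and overfed pool 1 the highest of the overfed pools in 8, and the groups overlap in every gene.

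Adipoq encodes adiponectin, a hormone secreted almost only by adipocytes. Its relative values were 0.28, -0.48 and 0.79 among lean and 0.44, -0.33 and -0.28 among overfed pools. Lean pool 3 was highest and lean pool 2 lowest of all 6, so the lean pools enclosed the overfed ones. The lean mean was 0.20 ± 0.64 and the overfed mean -0.06 ± 0.43 (SD, n = 3 pools), a difference of -0.26 (SE 0.34, 95% interval -1.06 to 0.55, limma adjusted p = 0.927). The span between lean pools 3 and 2, 1.27, was larger than the difference between groups. Exact permutation over pools, two-sided, returned p = 0.7, and its smallest possible p with 3 pools a group is 0.1.

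Lep encodes leptin, the satiety hormone that adipocytes release in proportion to their fat stores. Its relative values were 0.28, 0.04 and -0.04 among lean and 0.09, -0.14 and -0.10 among overfed pools. Lean pool 3, the highest for Adipoq, was the lowest lean pool for Lep. The difference was -0.14 (SE 0.12, 95% interval -0.42 to 0.13, limma adjusted p = 0.873). The whole range of the Lep probe set, 0.42, lay at the 56.6th percentile of all probe sets, whose median range was 0.38, while that of Adipoq (1.27) lay at the 96.5th. Lep and Adipoq, both secreted by adipocytes, thus differed in which pools were high.

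Cidec, which enlarges lipid droplets by fusion, had relative values of 0.30, -0.19 and 0.69 among lean and 0.19, -0.76 and -0.22 among overfed pools. Overfed pools 2 and 3 were below all lean pools, and overfed pool 1 was above lean pool 2. Its difference of -0.54 had a 95% interval of -1.22 to 0.15 (limma adjusted p = 0.826, exact permutation p = 0.2). Plin1 gave unequal answers in its 2 probe sets. The first had -0.03, 0.00 and 0.49 among lean and 0.24, -0.20 and 0.00 among overfed pools, a difference of -0.14 (SE 0.17). The second had 0.43, -0.12 and 0.94 among lean and 0.12, -0.47 and -0.35 among overfed pools, a difference of -0.65 (SE 0.28, 95% interval -1.31 to 0.005, limma unadjusted p = 0.0513, adjusted p = 0.751). The second probe set had the order of pools seen for Cidec and a range of 1.42, against 0.69 in the first. Lean pool 3 was highest in both.

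Aqp7, the channel through which adipocytes let out glycerol after triglyceride breakdown, had relative values of 0.21, -0.08 and 0.62 among lean and -0.01, -0.50 and 0.01 among overfed pools. Only lean pool 2 lay within the overfed range. The difference was -0.41 (95% interval -0.91 to 0.08, limma adjusted p = 0.811). Fabp4, the fatty acid carrier of adipocytes that endothelial cells and macrophages also make, had 0.44, -0.42 and 0.66 among lean and 0.14, -0.67 and -0.14 among overfed pools. Its difference of -0.45 had a 95% interval of -1.19 to 0.30 (limma adjusted p = 0.847). Lpl had 0.38, -0.64 and 0.62 among lean and 0.39, -0.66 and -0.38 among overfed pools, a difference of -0.34 (SE 0.38, limma adjusted p = 0.912). In Lpl, lean pool 2 and overfed pool 2 were almost equal at the bottom, and lean pool 1 and overfed pool 1 were almost equal near the top.

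Thrsp encodes a small nuclear protein, Spot 14, that follows carbohydrate intake and thyroid hormone and promotes fatty acid synthesis in fat, liver and mammary gland. It had 0.58, -0.24 and 1.04 among lean and 0.24, -0.53 and -0.92 among overfed pools. Its 2 other probe sets gave the same order of the 6 pools, with differences of -0.85 (SE 0.45) and -0.97 (SE 0.44) beside the -0.86 of the first (95% interval -1.77 to 0.05, limma unadjusted p = 0.0605, adjusted p = 0.767). The exact permutation test gave p = 0.2 for each of the 3. Overfed pools 2 and 3 were below all lean pools, whereas overfed pool 1 was above lean pool 2. The lipogenic enzyme gene Scd (0.54, -0.16 and 0.88 lean, 0.16, -0.48 and -0.63 overfed) had that order too, as did Pnpla3 (0.77, -0.07 and 1.38 lean, 0.07, -0.30 and -0.67 overfed). None of the other genes in the list around Thrsp, described below, had it. The order occurred in 92 of the 31042 probe sets tested (0.296%), and these include the 3 of Thrsp.

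Dgat2, the enzyme of the last step of triglyceride synthesis, was set apart by overfed pool 1. It had 0.19, -0.19 and 0.84 among lean and 1.16, -0.37 and -0.58 among overfed pools, and its second probe set had 0.20, -0.46 and 0.80 against 1.25, -0.20 and -0.48. Overfed pool 1 was the highest of the 6 and overfed pool 3 the lowest in both. The differences were -0.21 (SE 0.48) and 0.01 (SE 0.49), with 95% intervals of -1.33 to 0.92 and -1.15 to 1.17. Without overfed pool 1 they were -0.75 and -0.52.

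Pparg, the adipogenic transcription factor that granulosa cells also make, had its own order of pools. It had -0.27, 0.28 and 0.01 among lean and -0.28, -0.01 and 0.17 among overfed pools, so that lean pool 2, the lowest pool of Adipoq, was its highest, and overfed pool 1 its lowest. Its difference of -0.05 had a 95% interval of -0.45 to 0.36 (limma adjusted p = 0.976).

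**Figure D2:**
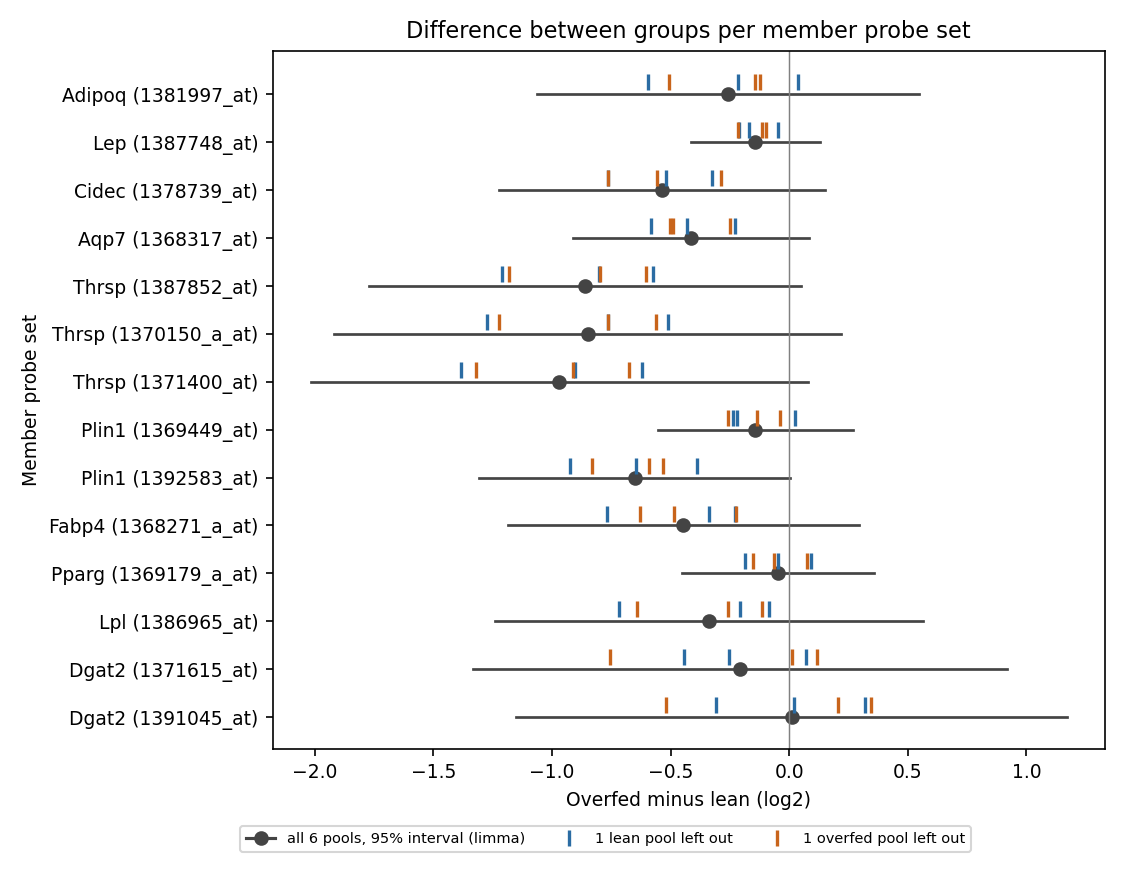
Overfed minus lean (log2, horizontal axis) for each of the 14 member probe sets, with limma's 95% interval over 6 pools and tick marks for the difference with 1 lean (blue) or 1 overfed (orange) pool left out. All 14 intervals include 0, and the Thrsp estimates stay below 0 with any 1 pool left out while those of Dgat2 fall on both sides.

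The members had much of their pool order in common. Within the lean group the order was pool 3, then 1, then 2 in 7 of the 10 genes, against 17.9% of all probe sets, and lean pool 3 was the highest of all 6 pools in 7, against 20.1%. Overfed pool 1 was the highest overfed pool in 8 of the 10, against 31.8%. Genes that vary more on these arrays have this order more often: among the 1923 probe sets with a range of at least 1, 46.4% had the lean order. Lean pool 3 was the highest of all 6 pools in 30.7% of these, and overfed pool 1 the highest overfed pool in 52.5%. The mean over the 10 genes was 0.24, -0.19 and 0.57 among lean and 0.26, -0.42 and -0.24 among overfed pools. The range of the 3 lean pools was larger than the difference between groups in all 10 genes, as it was in 83.2% of all probe sets. Over the 6 pools, which share their arrays, the Pearson correlation of each gene with the mean of the other 9 was 0.96 for Cidec, 0.95 for Lpl, 0.94 for Adipoq, 0.93 for Fabp4, 0.90 for Thrsp, 0.86 for Aqp7, 0.85 for Plin1 and 0.79 for Dgat2. It was 0.44 for Lep and -0.55 for Pparg. These 6-point values describe the arrays and carry no p-value.

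The same pools were high in markers of smooth muscle, a tissue of the oviduct, the mesovarium and vessel walls. Over the 8 smooth muscle genes, all measured, the mean was 0.36, -0.99 and 0.74 among lean and 0.86, -0.40 and -0.57 among overfed pools, a difference between groups of -0.08. All 8 genes had the lean order of pool 3, then 1, then 2, with overfed pool 1 on top of the overfed pools. Acta2, smooth muscle actin, had 0.28, -0.85 and 1.51 among lean and 0.66, -0.56 and -0.28 among overfed pools, and Myh11, Cnn1 and Actg2 ran from -0.99 to 0.54, -1.25 to 1.48 and -1.61 to 1.54. Fibroblast and preadipocyte genes, 9 of 10 measured, had means of -0.02, -0.29 and 0.15 among lean and 0.43, -0.25 and 0.02 among overfed pools. In the mean of this list, though not in each of its genes, lean pool 2 and overfed pool 2 were the lowest of their groups. Both were so in 5 of the 10 members (Adipoq, Cidec, Aqp7, Fabp4 and Lpl). Taken singly, each was so in 7 of the 10, against 28.8% (lean pool 2) and 29.3% (overfed pool 2) of all probe sets. Among probe sets with a range of at least 1 the shares were 63.7% and 20.9%.

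Oviduct and ciliated epithelium markers, 11 of 14 measured, had 9 of 11 genes in the lean order of pool 3, then 1, then 2, and 6 of 11 with overfed pool 1 on top of the overfed pools. Their means were 0.55, -0.01 and 0.82 among lean and -0.45, -0.20 and -0.69 among overfed pools, with all 11 lower in overfed ovaries, 9 of them at an unadjusted limma p under 0.05, against 4.47% of all genes lower at that threshold, and 0 at the adjusted one. Foxj1, the regulator of motile cilia, had 0.58, 0.21 and 0.95 among lean and -0.72, -0.21 and -0.50 among overfed pools, with overfed pool 1 lowest. Epcam, an epithelial adhesion gene, had 0.46, -0.64 and 0.49 among lean and 0.54, -0.46 and -1.18 among overfed pools, with overfed pool 1 highest. For genes of the steroid-producing ovary, 9 of 10 measured, the mean ran the other way, with -0.22, 0.10 and -0.33 among lean and -0.20, 0.05 and 0.28 among overfed pools. By gene the list was mixed, with 6 higher and 3 lower in overfed ovaries, where 47.8% of all genes were lower. The endothelial list, 8 of 9 measured, had -0.07, 0.17 and -0.03 against -0.16, -0.06 and 0.15. The order of the 6 pools in this mean is that of Pparg, from lean pool 2 at the top to overfed pool 1 at the bottom. Only the ranks were compared, and the range of Pparg was 0.56, at the 75.9th percentile of all probe sets. Macrophage markers, 9 of 9 measured, had -0.09, -0.12 and -0.04 among lean and 0.10, 0.04 and 0.18 among overfed pools. The group difference in the mean was -0.06 for mesothelial genes (4 of 5 measured), 0.11 for skeletal muscle genes (6 of 6) and 0.04 for erythroid genes (4 of 4). Acta1, skeletal muscle actin, spanned -2.58 in lean pool 2 to 3.30 in overfed pool 1, the extremes of the smooth muscle mean as well. Of the same list, Tnnt3 was also highest in overfed pool 1 (1.82). Ckm, Myh4 and Atp2a1 were instead higher in lean pool 2 (0.26, 0.06 and 0.15) than in overfed pool 1 (0.01, -0.06 and -0.03). Myl11 had -0.32 and -0.13 in those pools. The part of these tissues in the members' values was not tested.

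**Figure D3:**
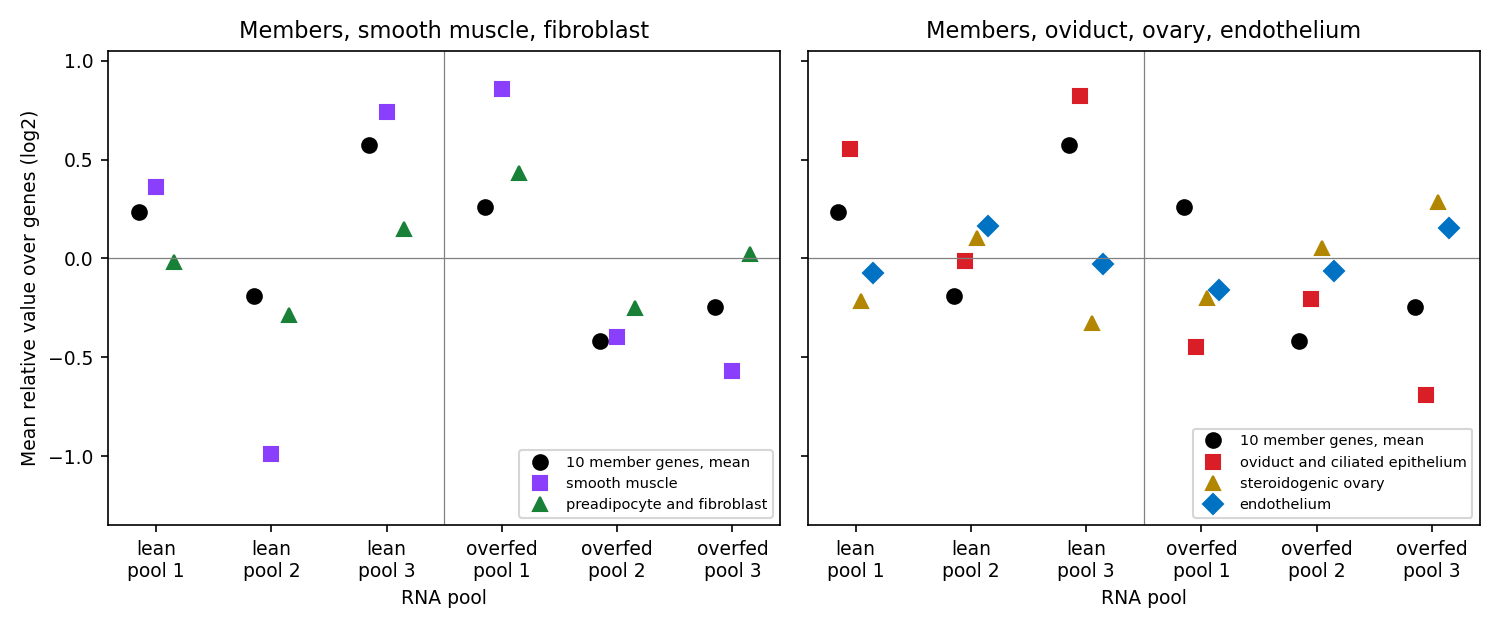
Mean relative value over genes (log2, vertical axis) in each of the 6 pools for the 10 members (black circles in both panels), beside smooth muscle and fibroblast lists on the left and oviduct, steroidogenic ovary and endothelial lists on the right. The members and smooth muscle are both high in lean pool 3 and overfed pool 1 and below 0 in the same pools. The members are lowest in overfed pool 2 (-0.42), and smooth muscle is lowest in lean pool 2 (-0.99), where the members are at -0.19. The oviduct list is above its overfed values in all lean pools.

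With the smooth muscle mean of each pool as a covariate, an alternative chosen after seeing the data, the median difference over the 10 members was -0.25. Thrsp was at -0.81 (SE 0.11, limma unadjusted p = 0.000168, adjusted p = 0.441), Cidec at -0.50 (SE 0.17, unadjusted p = 0.0208) and Fabp4 at -0.41 (SE 0.17, unadjusted p = 0.048). These 3 of 10 had an unadjusted p under 0.05, against 8.82% of all genes in that fit, and 0 passed the adjusted threshold. Adipoq was at -0.21 (SE 0.11), against an SE of 0.34 without the covariate. The covariate leaves 3 residual degrees of freedom among the 6 pools.

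The adipocyte marker list as a whole held 18 genes, of which 17 were measured and 6 are members. Of the 17, 15 were lower and 2 higher in overfed ovaries, with a median of -0.16, where 47.8% of all genes were lower. The mean over the 17 was 0.18, -0.14 and 0.41 among lean and 0.005, -0.22 and -0.02 among overfed pools. The list was chosen with its direction in these data known, so the count is no independent evidence. Only Slc2a4, the insulin-responsive glucose transporter, had an unadjusted p under 0.05 (0.46, 0.11 and 1.08 lean, -0.11, -0.21 and -0.20 overfed, difference -0.73, SE 0.23, limma adjusted p = 0.669). It was also the only one of the 17 whose groups did not overlap. Over all genes, 7.15% had such a p and 13.1% had groups without overlap, so neither count was above its share. Of the defining markers, Adipoq, Cidec and Plin1 were highest in lean pool 3 and Lep in lean pool 1, and the centred values do not show whether any was near background.

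The surrounding pathway was described in 9 lists, in which 0 genes passed the adjusted threshold and 8 of 104 different genes (7.69%) had an unadjusted p under 0.05, near the 7.15% of all genes. Of the 104, 6.73% were lower and 0.962% higher at that threshold, against 4.47% and 2.67% of all genes. The groups did not overlap in 9 of the 104 (8.65%), 8 lower and 1 higher, against 13.1% of all genes. Without lean pool 3 the 8 of 104 were 4, where the count over all probe sets fell from 2070 to 1513. Without overfed pool 1 they were 14 of 104, against 6.84% of all genes in that fit. Among droplet coat and fusion genes, 10 of 14 were lower, with a median of -0.09. Cideb, a relative of Cidec active in liver, was at -0.23 (SE 0.10, limma unadjusted p = 0.054) without overlap between the groups, and Plin5, the perilipin of oxidative tissue, was at -0.22 (SE 0.14). Plin2, the droplet coat protein of most non-adipose cells, was at 0.004 (SE 0.14), and its highest pool was lean pool 2, as for Pparg. Hsd17b13, a droplet enzyme of liver, was at 0.13 (SE 0.09). Triglyceride synthesis genes had 9 of 15 lower and a median of -0.05. The acyltransferase gene Agpat1 was at -0.29 (SE 0.17), Gpat2 at 0.23 (SE 0.16) and Mogat2 at 0.50 (SE 0.33). Among genes of triglyceride breakdown, 7 of 11 were lower. Pnpla2, which encodes adipose triglyceride lipase, had 0.03, 0.13 and 0.30 among lean and -0.27, -0.08 and -0.03 among overfed pools, a difference of -0.29 (SE 0.11, limma unadjusted p = 0.032, adjusted p = 0.719). Its groups did not overlap. Mgll, which encodes monoglyceride lipase, was at -0.21 (SE 0.12), and the kinase subunit gene Prkar2b at 0.23 (SE 0.11).

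Genes that free fatty acids from lipoproteins, take them up or carry them had 13 of 17 lower and a median of -0.15. Angptl8, which encodes an insulin-induced inhibitor of lipoprotein lipase made in fat and liver, had 0.12, 0.16 and 0.64 among lean and -0.12, -0.37 and -0.43 among overfed pools. Its difference of -0.61 (SE 0.16) had an unadjusted limma p of 0.00678 and an adjusted p of 0.623, without overlap. Acsl1, the acyl-CoA synthetase of adipocytes, was at -0.35 (SE 0.13, adjusted p = 0.711), also without overlap, and Lmf1, needed for the folding of lipoprotein lipase, was at -0.19 (SE 0.09), without overlap too. In the short list of glycerol and glucose transport, 6 of 8 were lower, with a median of -0.20. The insulin receptor substrate gene Irs1 was at -0.36 (SE 0.16) and Pck1, used for glyceroneogenesis, at 0.28 (SE 0.25). Adipokine genes had 6 of 8 lower and a median of -0.06, with Rbp4 at -0.40 (SE 0.23), Serpina12 at -0.10 (SE 0.13) and Rarres2 at 0.08 (SE 0.17).

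Adipogenic transcription factor genes had 11 of 15 lower, with a median of -0.05. Cebpa, the partner of Pparg in adipocyte differentiation, was at -0.29 (SE 0.12, limma unadjusted p = 0.0518), Cebpb at -0.27 (SE 0.14) and Cebpd, which acts early in differentiation and in the acute phase response, at 0.50 (SE 0.20, unadjusted p = 0.0384, adjusted p = 0.726). The 9 genes around Thrsp had 7 lower and the lowest median of the 9 lists, -0.36, with Pnpla3 at -0.996 (SE 0.36), Scd at -0.74 (SE 0.30) and Fasn at -0.55 (SE 0.20, without overlap). Acaca and Mid1ip1 of the same list were both at 0.02. Brown and beige adipocyte genes had 3 of 8 lower and a median of 0.06, with Cpt1b at 0.19 (SE 0.09, without overlap), Ucp1 at 0.17 (SE 0.09) and Cidea at -0.24 (SE 0.21). Cidea, a relative of Cidec, stands in both this list and that of droplet coat genes.

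**Figure D4:**
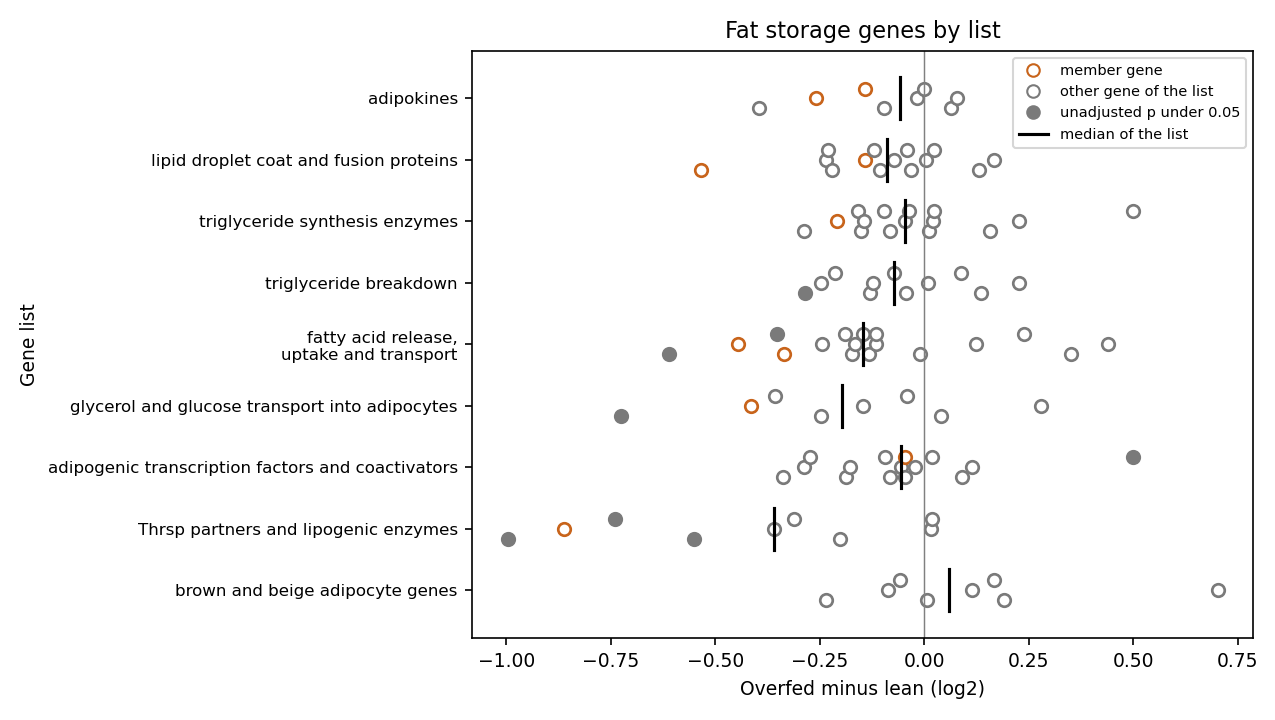
Overfed minus lean (log2, horizontal axis) for every measured gene of the 9 fat storage lists, with members in orange, other genes in grey, filled points for an unadjusted limma p under 0.05 and a vertical bar for the list median. The Thrsp list has the lowest median (-0.36) and the brown and beige list the highest (0.06), and 7 of the 8 filled genes lie below 0.

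Among all named genes other than the members, those with values most like the mean of the 10 members, among those with a range of at least 1, were the epithelial integrin gene Itgb4 (Pearson r = 0.98 over the 6 pools), Rims1 (0.97), the secreted protease inhibitor gene Slpi (0.96), the cysteine dioxygenase gene Cdo1 (0.96), Cacnb3 (0.96), the epithelial cytolinker gene Eppk1 (0.95), the smooth muscle gene Lmod1 (0.95) and Scd (0.94). Of these 8, Lmod1 belongs to the smooth muscle list and Scd to the list around Thrsp. Their differences ran from -0.31 for Cacnb3 to -0.74 for Scd, and Scd alone had an unadjusted p under 0.05 (0.0437, limma adjusted p = 0.739). The values are given as likeness over 6 arrays only.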

How the data were processed

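Ovary RNA was prepared with TRI reagent and RNeasy columns and biotin-labelled for Affymetrix arrays, per the labels. GCOS is named in the submitters' processing notes, with no version. No source used here names the probe set summary, normalization or log base. Values deposited by the authors are log values, taken as log2, with a median of 0 (within 5.0e-07) over the 6 arrays in each of 31099 probe sets. Scale and centring before that step are unknown. If they are natural logarithms, the median member fold is 0.74, not 0.81.

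Names came from the platform annotation and were updated through Entrez identifiers in the RefSeq table of GRCr8, which held those of 20764 of 20826 named probe sets. Another 436 probe sets had several names and 9780 were unnamed. After 57 controls were left out, 31042 probe sets were fitted in limma 3.58.1 (R 4.3.3), overfed against lean, with lmFit and eBayes (two-sided), p-values being adjusted by Benjamini-Hochberg over the whole table at 0.05. A gene's representative probe set was chosen by a RefSeq accession, then by type, then by lowest identifier. Of 187 list genes, 174 were measured. Named were all members, the 3 other genes of lowest p in each pathway list, the first 4 measured genes of each marker list, and the 8 genes most like the members' mean. Of those marker genes, the members Adipoq, Lep, Plin1 and Cidec are printed. Besides them only Acta2, Myh11, Cnn1, Actg2, Foxj1, Acta1, Ckm, Myh4 and Tnnt3 are. Plin2, Acaca, Mid1ip1, Epcam, Myl11 and Atp2a1 were named after their values were seen. Members and lists were chosen with earlier results of these data known. The fit was tested on simulated data. Figures used matplotlib 3.10.9 under Python 3.11.15. The number of arrays limits the precision.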

Additional observations from a re-analysis of the deposited data

How the results depend on the processing

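The fit was repeated with quantile normalization, with each array centred on its median, with array weights, with an eBayes trend plus robust prior, with a replicate block, without each pool in turn, and without the probe sets whose SD was below the median. A trend alone, leaving out lean pool 3 with overfed pool 1, and the smooth muscle covariate were chosen after seeing the data. A filter on dim probe sets was not possible, since the values hold no levels. No member probe set passed the adjusted threshold in limma under any of these 15 settings, where the lowest adjusted p was 0.422. Over all probe sets the adjusted count of 0 became 1 with the trend and robust prior and 62 without the probe sets of smaller SD. The unadjusted count of 2070 became 944 in the latter, where fewer probe sets were tested.

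The count of members with an unadjusted p under 0.05 was 0 in the report. It was 1 (Thrsp) with array weights, with the trend alone or without the probe sets of smaller SD. Of all 31042 probe sets, 2224 had such a p with array weights and 2099 with the trend alone, against 2070 (6.67%) in the main fit. Among the probe sets of larger SD alone, 944 had it. The members' count was 2 without lean pool 3 and overfed pool 1 together (5.35% of all genes) and 3 with the covariate (8.82%). With 1 pool left out it ran from 0 to 4, with 4 without lean pool 2 (7.83% of all genes) and 3 without overfed pool 1 (6.84%). The count of list genes at that threshold, 8 of 104, became 15 without lean pool 3 and overfed pool 1 (5.35% of all genes). It was 15 with the covariate (8.82%). With 1 pool left out it ran from 4 to 14, with 14 without overfed pool 1 (6.84%). The median difference of the members ran from -0.59 to -0.12 with 1 pool left out, and was -0.40 with quantile normalization.

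With the pool number as a replicate block, 3 of 10 members (Aqp7, Cidec and Fabp4) had an unadjusted p under 0.05. So did 14 of the 104 list genes, against 5.98% of all genes in that fit. Deviations of same-numbered pools correlated at 0.10, 0.17 and -0.28, and those of unlike-numbered pools at -0.42 to 0.40. The numbers were not taken as pairs, though these correlations cannot show whether pools were processed together.

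Of 213 comparisons of a member with its main value, 14 changed sign, in 5 probe sets. The 213 include the means over all probe sets of Thrsp, Plin1 and Dgat2. Both trend settings, the replicate block and the filter on SD leave each difference as it was. No sign could change under those settings, so 14 of 213 is not a measure of how steady the signs are. Pparg turned to 0.014 with array weights and 0.0746 without lean pool 3 and overfed pool 1, and ran from -0.19 to 0.0903 with 1 pool left out. Adipoq ran from -0.60 to 0.0379, the first probe set of Plin1 from -0.26 to 0.0255, and Dgat2 from -0.75 to 0.12. The second Dgat2 probe set was at -0.11 with quantile normalization, -0.0774 with array weights and -0.21 without lean pool 3 and overfed pool 1, and ran from -0.52 to 0.3438 with 1 pool left out. The cause of these changes was not tested.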
